A study of Mus musculus with 17 samples.

Results

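The proteins made from 37 genes fold, cut, glycosylate and clear secreted and membrane proteins in the endoplasmic reticulum (ER), and the transcripts of these genes were followed in mouse prostate and prostate tumours. The genes are a list of names grouped by known roles. They comprise 15 chaperones and folding enzymes, 3 genes of the stress sensors and Xbp1, 13 genes of the translocon, signal peptidase and oligosaccharyltransferase, and 6 degradation genes. This list and the other gene lists below were chosen with earlier results of these data known. Counts over them describe the lists and are not an independent test. All 37 were found among the 13905 genes kept from the genotype files and the 39179 kept from the files of an inducible model, and 37 of 37 passed the filter on low values in both.

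Whole tissue from C57BL/6 mice was measured by RNA sequencing. Wild-type prostate came from mice aged 12 months (n = 3). Prostate tumours of the genotype Ctnnb1pc(ex3)delta/+ came from mice of about 12 months (n = 3, the Ctnnb1 group), and tumours in which a further engineered change was added to it from mice of about 6 to 8 months (n = 3, the combined group). Cells use the deleted exon's stretch of beta-catenin to target that protein for destruction, and beta-catenin without it is stable. The labels do not expand pc, so the cells in which that allele was recombined are not stated. In the inducible model, both changes of the combined genotype were made by Nkx3-1CreERT2, a drug-activated recombinase expressed from a gene of prostate luminal cells. Tumours of that model came from mice of about 15 months after mock treatment (n = 2) or androgen deprivation (ADT, n = 3), and the labels do not say how androgen was withdrawn. Every tumour group carries the Ctnnb1 change, and no group carries a recombinase alone. Age and genotype cannot be told apart in the combined group. The labels do not say that each sample is a separate animal, so p-values measure the spread between these samples, which may be technical.

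A protein bound for secretion enters the ER through the Sec61 channel as it is made, loses its signal peptide to signal peptidase, receives its sugar chain from the oligosaccharyltransferase and is folded by chaperones and disulfide isomerases. Chains that fail to fold are passed back to the cytosol by the degradation machinery. When unfolded chains collect, the sensors IRE1 (from Ern1), ATF6 and PERK start the unfolded protein response, in which IRE1 cuts Xbp1 transcripts so that they encode an active transcription factor. Luminal cells of the prostate pour large amounts of protein into the prostatic fluid and are rich in ER.

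ATF6 and XBP1 are known to act through the ER stress response element, a CCAAT box and a CCACG box set 9 bases apart, and through a shorter form named ERSE-II. Promoter windows were searched on both strands for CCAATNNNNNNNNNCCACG and for ATTGGNCCACG. The windows run from 250 bases before to 50 after the start that RefSeq gives on GRCm38.p6, and 30 of the 37 genes had one. The first motif was in 9 of the 30 and in 37 of 27025 genes with a window (0.137%). ERSE-II was in 2 of the 30 and in 12 of the 27025 (0.0444%). The list holds genes of the response that these elements serve, so the shares describe it and test nothing. Hsp90b1 held 2 copies of the first motif, and no window of these 30 genes held both motifs. The upstream stretches of 5 genes that carry a motif and whose transcripts are described below are shown here 5′ to 3′ along the gene, with the motif in capitals and cut where GENCODE M21 begins the gene. A match on the opposite strand reads from CGTGG to ATTGG. They lie at chr10:86705510-86705694 (minus strand), chr12:17266339-17266544 (plus), chr15:88819396-88819645 (plus), chr10:75893148-75893397 (plus) and chr8:94386179-94386428 (plus).
Hsp90b1: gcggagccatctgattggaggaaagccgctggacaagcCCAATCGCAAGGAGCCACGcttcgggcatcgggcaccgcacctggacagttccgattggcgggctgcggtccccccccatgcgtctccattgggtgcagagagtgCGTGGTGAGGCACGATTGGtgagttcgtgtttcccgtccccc
Pdia6: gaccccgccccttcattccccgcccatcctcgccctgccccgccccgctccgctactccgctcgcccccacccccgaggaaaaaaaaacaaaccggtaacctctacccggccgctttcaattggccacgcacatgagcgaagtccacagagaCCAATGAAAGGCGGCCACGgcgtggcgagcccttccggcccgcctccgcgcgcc
Creld2: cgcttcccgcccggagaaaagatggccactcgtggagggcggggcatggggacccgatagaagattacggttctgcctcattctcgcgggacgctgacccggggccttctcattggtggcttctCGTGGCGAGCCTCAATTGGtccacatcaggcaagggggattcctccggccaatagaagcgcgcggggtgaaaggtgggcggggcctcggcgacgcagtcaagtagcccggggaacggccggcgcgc
Derl3: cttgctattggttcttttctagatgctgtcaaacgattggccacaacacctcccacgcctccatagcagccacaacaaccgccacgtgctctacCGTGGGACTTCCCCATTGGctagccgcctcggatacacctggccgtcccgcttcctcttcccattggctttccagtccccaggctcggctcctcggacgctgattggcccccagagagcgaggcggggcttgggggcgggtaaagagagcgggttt
Herpud1: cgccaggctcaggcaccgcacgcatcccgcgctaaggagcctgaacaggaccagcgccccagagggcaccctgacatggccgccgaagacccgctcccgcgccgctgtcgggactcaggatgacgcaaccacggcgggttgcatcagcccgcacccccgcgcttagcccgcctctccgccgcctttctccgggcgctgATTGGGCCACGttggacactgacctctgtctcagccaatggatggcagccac
The other matches were these, of which that of Dnajb11 is an ERSE-II match after the start.
Hspa5: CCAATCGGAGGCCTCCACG
Calr: CGTGGTCGACCCTCATTGG
Canx: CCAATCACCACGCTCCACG
Dnajc3: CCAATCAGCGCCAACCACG
Syvn1: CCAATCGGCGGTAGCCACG
Dnajb11: ATTGGCCCACG
The first bases of the upstream matches lay between 212 and 44 bases before the start, the farthest and nearest being those of Hsp90b1 and Syvn1. A match describes the letters in a window and does not show that a factor binds there.

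The deposited values are gene read counts that the authors had scaled per library and rounded, and their totals are not sequencing depths. Over the genes kept, the totals ran from 37222233 to 38995268 in wild-type, 26754772 to 27522308 in Ctnnb1 and 26428684 to 27189777 in combined libraries. The inducible files were scaled apart, with totals of 28450083 to 30745082, and are compared only among themselves. Changes were called where limma, fitted on log2(value + 1) over all genes, gave an adjusted p under 0.05. Differences marked log2 are changes on that scale. The luminal keratin gene Krt8 was at 11054 or more in each of the 14 libraries. The gene total of Ctnnb1 covers exons outside the deletion and checks nothing about it. Axin2, a feedback target of beta-catenin, was higher in Ctnnb1 (log2 3.06, SE 0.20, limma adjusted p 2.22e-05) and combined tumours (log2 2.49, SE 0.20, limma adjusted p 4.22e-05) than in wild type.

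In the Ctnnb1 group, 35 of the 37 ER genes fell against wild-type prostate and 0 rose, where 29.6% of all tested genes fell and 28.9% rose. Their median log2 change was -0.97, and that of all tested genes was 0.00. All 15 chaperones and folding enzymes, all 13 translocon, signal peptidase and oligosaccharyltransferase genes and all 6 degradation genes fell, with class medians of -0.99, -0.92 and -1.27. The genes not called were Xbp1 and Ern1. A fall of at least 2-fold was called for 17 genes, against 15.1% of all tested genes. For 36 of the 37, every Ctnnb1 library lay below every wild-type library, which held for 35.6% of tested genes. The list was chosen with earlier results of these data known, so the shares are set beside it as description.

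In the combined group, 29 of the 37 fell and 0 rose, where 29.5% of all tested genes fell and 28.3% rose. The median was -0.95 for the 37 genes and -0.01 for all tested genes. The translocon class fell in full (13 of 13, median -0.95), as did degradation (6 of 6, median -1.13). Of the chaperones and folding enzymes 8 of 15 fell (median -0.74), and of the sensor class 2 of 3 fell (median -1.06), with Xbp1 not called. The groups did not overlap for 32 genes, all lower, against 34% of tested genes, and 15 genes fell at least 2-fold, against 12.4%. Both comparisons use the same 3 wild-type libraries, so their values are given side by side and are not independent of each other, and the difference between the tumour groups was not tested.

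**Figure D1:**
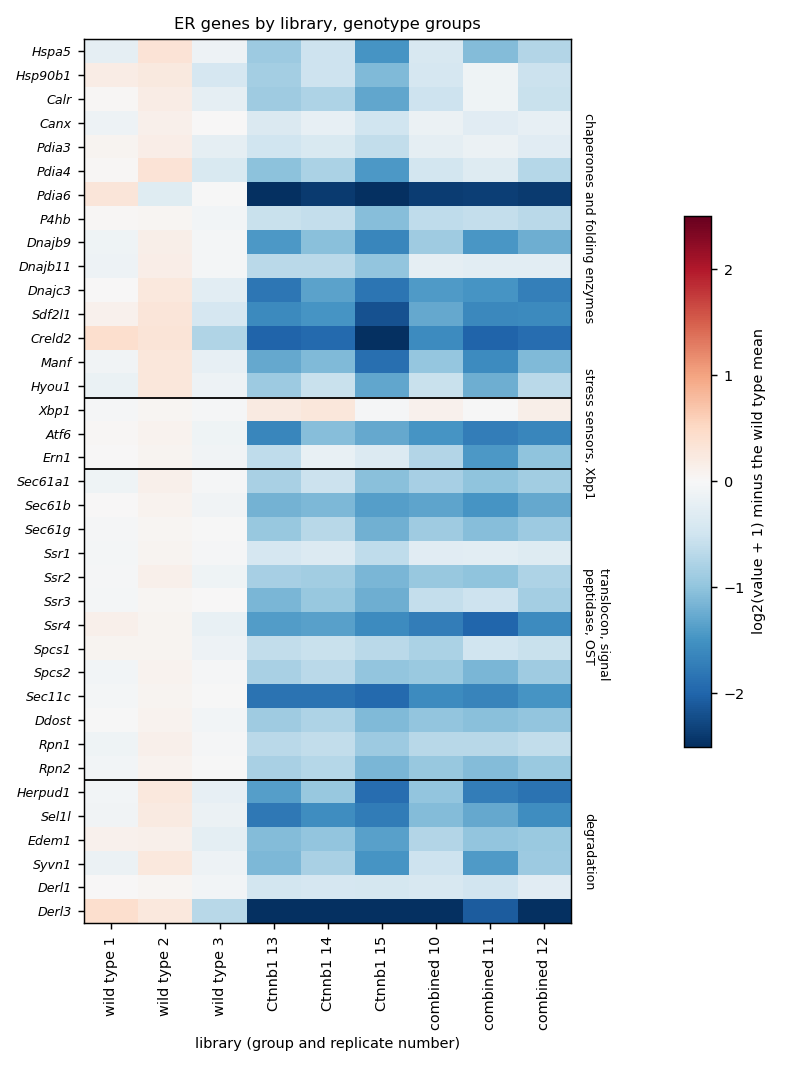
Heat map of log2(value + 1) minus the wild-type mean for the 37 ER genes (one line of cells per gene, in 4 classes) in the 9 genotype libraries, on the deposited scale. Blue is lower and red higher than the wild-type mean, colours end at 2.5 on either side, and Xbp1 is above the wild-type mean in 4 of the 6 tumour libraries.

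**Figure D2:**
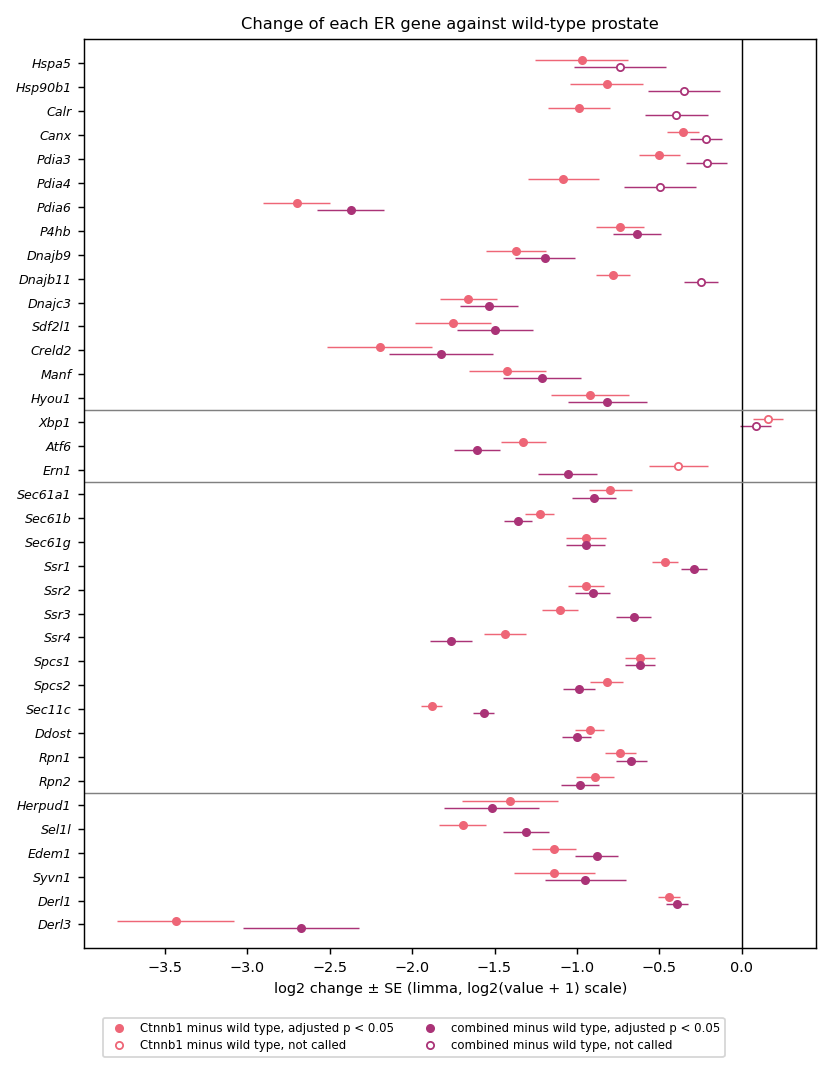
Log2 change against wild type for each ER gene, with the moderated SE as error bars, in the Ctnnb1 and combined groups (n = 3 each), where filled points passed an adjusted p of 0.05. Derl3 and Pdia6 lie farthest to the left and Xbp1 is the only gene to the right of 0, and with libraries scaled to equal totals Canx, Ern1, Ssr1 and Derl1 (Ctnnb1) and Hsp90b1, Calr, Canx, Pdia3, Pdia4, Dnajb11, Ssr1 and Derl1 (combined) move to the right of 0 as well.

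How far these counts depend on the scaling was measured, because secretory transcripts fill much of a wild-type library. When all libraries were brought to equal totals, the median of all tested genes moved to 0.49 in the Ctnnb1 and 0.50 in the combined comparison. The ER genes called lower then numbered 24 in the Ctnnb1 group, with 1 higher (Xbp1). In the combined group they numbered 21, with 3 higher (Canx, Xbp1 and Ssr1). The shares of all tested genes given above hold for the deposited scale and do not apply to these counts. Shares under equal totals are not given here, so these counts cannot be set against a background. Calls lost with equal totals included Hyou1 in both groups (limma adjusted p 0.144 and 0.297) and Syvn1 in the combined group (0.154). Over all alternatives run, 24 of the 37 genes in the Ctnnb1 and 21 in the combined comparison kept their direction and their side of the threshold. Measured from the median of all genes, the Ctnnb1 class medians under equal totals were -0.99 for chaperones, -0.38 for sensors, -0.92 for translocon and -1.27 for degradation. The combined ones were -0.72, -1.04, -0.94 and -1.12 in the same order. Rescaling moves every gene of a library by nearly the same log2 amount. These differences from the all-gene median could therefore hardly move, and they do not test the scaling. With a trimmed mean of M values the counts were 35 and 29 as on the deposited scale. That scaling left the median of all tested genes at 0.02 (Ctnnb1) and -0.01 (combined). It was thus nearly the deposited scale and could hardly move the counts. Equal totals of all genes except 25 secretory output genes gave 34 lower and 1 higher in the Ctnnb1 and 28 lower in the combined comparison.

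**Figure D3:**
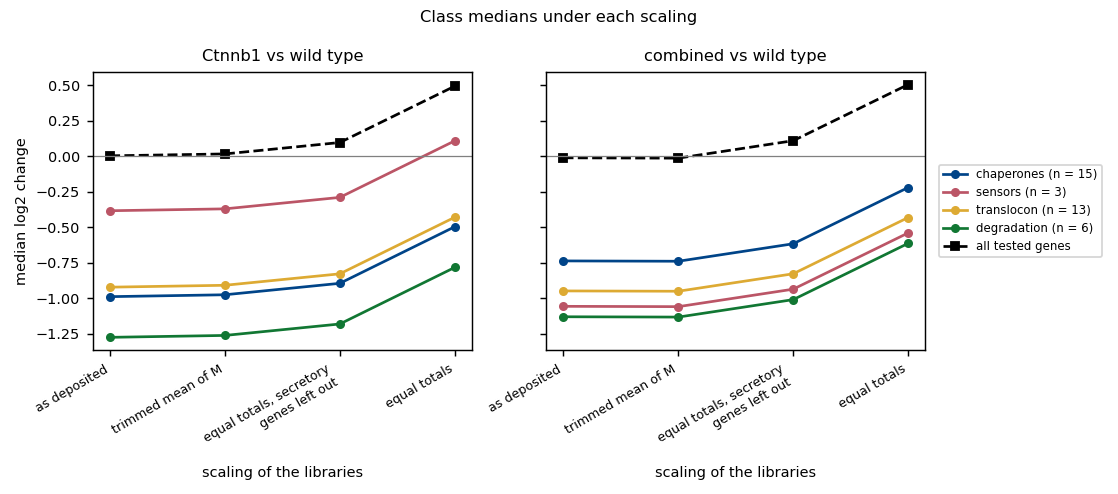
Median log2 change of the 4 ER classes and of all tested genes (dashed) against wild type under 4 scalings of the libraries. The class medians and the median of all genes move up together under equal totals, because rescaling shifts every gene alike. There the sensors' median in the Ctnnb1 group crosses 0 to 0.11.

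Chaperones bind unfolded chains. Hspa5 (Entrez 14828, chr2:34771970-34777547 on GRCm38, plus strand) encodes BiP, the ER's main Hsp70 chaperone and the brake on the stress sensors. It stood at 53657, 80183 and 57880 in the wild-type libraries, against 33377, 43854 and 22546 for Ctnnb1 and 47951, 29766 and 37735 for the combined group. All 6 tumour libraries lay below the lowest wild-type library. It fell in the Ctnnb1 group to 52.0% of the wild-type mean (log2 -0.97, SE 0.28, limma adjusted p 0.0169), a call lost without wild-type replicate 2 (adjusted p 0.0622 in limma) or Ctnnb1 replicate 15 (0.0529), and with equal totals (-0.48, 0.158). In the combined group it missed the threshold (log2 -0.74, SE 0.28, limma adjusted p 0.0501). There it was called without combined replicate 10 (limma adjusted p 0.0369), with a mean of at least 100 (0.0492), a robust prior (0.0484), only the 6 libraries compared (0.0399) or 12 libraries in the fit (0.0303), and not with equal totals (-0.22, 0.506).

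Hsp90b1, which encodes the ER member of the Hsp90 family, was at 50716, 53162 and 33350 in the wild-type libraries, against 24974, 31235 and 20968 for Ctnnb1 and 33580, 41431 and 31082 for the combined group. Only the combined libraries overlapped the wild type, through wild-type replicate 3. The Ctnnb1 group fell (log2 -0.82, SE 0.22, limma adjusted p 0.0124), a call lost with equal totals (-0.33, adjusted p 0.21), and the combined group was not called (log2 -0.35, SE 0.22, limma adjusted p 0.199) unless wild-type replicate 3 was left out (-0.56, adjusted p 0.0441). Calr encodes calreticulin, which holds glycoproteins while they fold. Its values were 58659, 64933 and 49101 in the wild-type libraries, against 30964, 33494 and 23128 for Ctnnb1 and 39821, 53160 and 38801 for the combined group. Here too the combined libraries overlapped the wild type, through combined replicate 11. Calr fell in the Ctnnb1 group (log2 -0.99, SE 0.19, limma adjusted p 0.00258) and was not called in the combined group (log2 -0.40, SE 0.19, limma adjusted p 0.105) unless combined replicate 11 was left out (-0.54, adjusted p 0.0443).

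Pdia6 (Entrez 71853, chr12:17266545-17284770, plus strand), a disulfide isomerase, had the largest fall of the 15 in both comparisons. It was at 94457, 62276 and 75638 in the wild-type libraries, against 12566, 14521 and 8856 for Ctnnb1 and 14765, 14859 and 14559 for the combined group. Every tumour library was far below the lowest wild-type library, and the 3 combined libraries lay close together. Pdia6 fell to 15.5% of the wild-type mean in the Ctnnb1 (log2 -2.70, SE 0.20, limma adjusted p 3.37e-05) and to 19.0% in the combined group (log2 -2.37, SE 0.20, limma adjusted p 4.82e-05). The other disulfide isomerases moved less. P4hb, the most abundant of them per length, fell in both (-0.74 and -0.63), while Pdia4 (-1.08) and Pdia3 (-0.50) fell in the Ctnnb1 group and had log2 changes of -0.49 and -0.21 that were not called in the combined group. With equal totals P4hb was called in neither group (-0.25 and -0.12, limma adjusted p 0.159 and 0.493), nor was Pdia3 in the Ctnnb1 group (-0.0087, 0.956). Without wild-type replicate 3 the combined changes of Pdia4 and Pdia3 became -0.68 (adjusted p 0.0288 in limma) and -0.33 (adjusted p 0.0418 in limma).

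Dnajc3, Dnajb9 and Dnajb11 encode J-domain partners that hand clients to BiP. Dnajc3 was at 23686, 28496 and 19667 in the wild-type libraries, against 6734, 9366 and 6681 for Ctnnb1 and 8817, 8568 and 7251 for the combined group. The tumour libraries were all below the lowest wild-type library, and it fell by 1.66 in the Ctnnb1 (SE 0.17, adjusted p 0.000132 in limma) and by 1.53 in the combined group (SE 0.17, adjusted p 0.000185 in limma) on the log2 scale. Dnajb9 was at 6329, 7476 and 6599 in the wild-type libraries, against 2506, 3304 and 2188 for Ctnnb1 and 3659, 2461 and 2896 for the combined group. It also fell in both, by 1.37 and 1.19. Dnajb11 was at 3872, 4732 and 4092 in the wild-type libraries, against 2629, 2638 and 2134 for Ctnnb1 and 3589, 3524 and 3533 for the combined group. Its tumour libraries were all below the wild type, but the combined ones only slightly: the log2 change was -0.78 in the Ctnnb1 (SE 0.10, adjusted p 0.000387 in limma) and -0.25 in the combined group, which was not called (SE 0.10, adjusted p 0.0665 in limma).

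Sdf2l1 and Creld2 are ER stress-inducible genes, the first encoding a BiP cofactor. Sdf2l1 was at 5665, 6464 and 3923 in the wild-type libraries, against 1731, 1892 and 1152 for Ctnnb1 and 2147, 1721 and 1729 for the combined group. Creld2 was at 10539, 9922 and 4711 in the wild-type libraries, against 1969, 2046 and 1267 for Ctnnb1 and 2658, 1969 and 2112 for the combined group. In both genes wild-type replicate 3 was the lowest wild-type library and still lay above each tumour library. Sdf2l1 fell to 29.8% of the wild-type mean in the Ctnnb1 (log2 -1.75, SE 0.23, limma adjusted p 0.000388) and to 34.9% in the combined group (log2 -1.50, SE 0.23, limma adjusted p 0.000832). Creld2 fell to 21.0% (log2 -2.20, SE 0.32, limma adjusted p 0.000621) and 26.8% (log2 -1.83, SE 0.32, limma adjusted p 0.00155). Manf, a small secreted stress factor, fell by 1.42 and 1.21, and Hyou1, a large Hsp70 relative, by 0.92 and 0.81, the latter not without combined replicate 11 (adjusted p 0.0536 in limma) or wild-type replicate 2 (0.0653). Canx, the membrane-bound partner of calreticulin, had the least negative change of the 15 in the Ctnnb1 group (-0.36, adjusted p 0.0146 in limma; 0.13 with equal totals). That call was lost without Ctnnb1 replicate 15 (0.0518) or wild-type replicate 2 (0.0576), and its change in the combined group (-0.22) was not called.

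Among the sensors, Xbp1, Atf6 and Ern1 went apart. Xbp1 (Entrez 22433, chr11:5520659-5525893, plus strand) was at 9527, 10050 and 9575 in the wild-type libraries, against 11418, 11811 and 9459 for Ctnnb1 and 10507, 9668 and 10748 for the combined group. The groups overlapped, and neither change was called (log2 change 0.16, SE 0.09, adjusted p 0.17; log2 0.08, SE 0.09, limma adjusted p 0.459). Without Ctnnb1 replicate 15 its rise in the Ctnnb1 group was called (0.26, adjusted p 0.0243 in limma). With equal totals Xbp1 was called higher in both groups (0.65, limma adjusted p 0.000389, and 0.60, limma adjusted p 0.000639), and with the secretory genes left out of those totals it was called higher in the Ctnnb1 group (0.25, 0.0432). Gene totals do not show how much Xbp1 RNA is spliced. Atf6 was at 9038, 9410 and 8196 in the wild-type libraries, against 2872, 4240 and 3642 for Ctnnb1 and 3189, 2690 and 2873 for the combined group. Each tumour library held less than each wild-type library, and Atf6 fell in the Ctnnb1 (log2 -1.32, SE 0.14, limma adjusted p 0.000129) and in the combined group (log2 -1.61, SE 0.14, limma adjusted p 5.21e-05).

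Ern1 was at 8792, 9085 and 8182 in the wild-type libraries, against 5608, 7621 and 6888 for Ctnnb1 and 5231, 3197 and 4350 for the combined group. The 9 libraries did not overlap between wild type and either tumour group, and the combined libraries were the lowest. It fell in the combined group (log2 -1.06, SE 0.18, limma adjusted p 0.00134). In the Ctnnb1 group it was not called (log2 -0.38, SE 0.18, limma adjusted p 0.0952), while a fit on the 6 libraries of that comparison alone called it (adjusted p 0.0267), and with equal totals its sign turned (0.11).

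The channel and the enzymes on it fell in both tumour groups on the deposited scale, 13 of 13 genes, and 9 of 13 were called lower in each group with equal totals. The calls lost there were those of Sec61a1, Ssr1, Spcs1 and Rpn1 in the Ctnnb1 group (limma adjusted p 0.0674, 0.772, 0.242 and 0.0519) and of Ssr3, Spcs1 and Rpn1 in the combined group (0.252, 0.347 and 0.192), where Ssr1 was called higher. Sec61a1, the pore subunit, was at 21558, 25238 and 22671 in the wild-type libraries, against 13256, 15884 and 11138 for Ctnnb1 and 13065, 11525 and 12695 for the combined group. Sec61b, a small subunit of the pore, was at 7220, 7585 and 6697 in the wild-type libraries, against 3159, 3273 and 2769 for Ctnnb1 and 2868, 2584 and 2940 for the combined group. Both separated the wild type from every tumour library. Sec61a1 changed by -0.80 (SE 0.13, adjusted p 0.00118 in limma) and -0.90 (SE 0.13, adjusted p 0.000655 in limma), and Sec61b by -1.23 (SE 0.09, adjusted p 2.93e-05 in limma) and -1.36 (SE 0.09, adjusted p 1.85e-05 in limma). The third subunit, Sec61g, fell by 0.94 and 0.95.

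Ssr4, one of the translocon-associated proteins that sit beside the pore, was at 16711, 15875 and 13344 in the wild-type libraries, against 5818, 5984 and 5130 for Ctnnb1 and 4590, 3856 and 5111 for the combined group. Every tumour library was below every wild-type library. It fell to 36.9% of the wild-type mean in the Ctnnb1 (log2 -1.44, SE 0.13, limma adjusted p 6.15e-05) and to 29.5% in the combined group (log2 -1.76, SE 0.13, limma adjusted p 2.44e-05). Its partner Ssr1 moved least of the 13, by -0.46 and -0.29 (0.03 and 0.23 with equal totals), and the call in the combined group was lost without wild-type replicate 2 (adjusted p 0.0545 in limma). Ssr2 fell by 0.94 and 0.90, and Ssr3 by 1.10 and 0.66.

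Sec11c encodes a catalytic subunit of signal peptidase. It was at 10938, 11806 and 11155 in the wild-type libraries, against 3124, 3153 and 2929 for Ctnnb1 and 3798, 3616 and 4036 for the combined group. The libraries of each group lay close together and the 3 groups did not overlap. With log2 changes of -1.88 (SE 0.06, adjusted p 2.79e-06 in limma) and -1.57 (SE 0.06, adjusted p 5.79e-06 in limma), it had the smallest p of the 37 genes in both comparisons. The non-catalytic subunits Spcs1 (-0.62 and -0.62) and Spcs2 (-0.82 and -0.99) fell as well. Ddost, a subunit of the oligosaccharyltransferase, was at 15104, 16080 and 14453 in the wild-type libraries, against 8219, 8850 and 7110 for Ctnnb1 and 7699, 7408 and 7684 for the combined group. Wild type and tumours did not overlap, and Ddost fell by 0.92 (SE 0.09, adjusted p 8.91e-05 in limma) and by 1.00 (SE 0.09, adjusted p 5.77e-05 in limma) on the log2 scale. Rpn1 (-0.74 and -0.67) and Rpn2 (-0.89 and -0.98), of the same enzyme, fell too.

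Of the degradation genes, Sel1l (Entrez 20338, chr12:91806043-91849157, minus strand) encodes the adaptor of the ubiquitin ligase made by Syvn1. It was at 10258, 12786 and 9876 in the wild-type libraries, against 3165, 3737 and 3238 for Ctnnb1 and 5132, 4466 and 3718 for the combined group. Wild type and tumours were apart, and Sel1l fell by 1.69 (SE 0.14, adjusted p 5.05e-05 in limma) and by 1.31 (SE 0.14, adjusted p 0.000146 in limma). Syvn1 fell by 1.14 and 0.95, and Edem1, a lectin-like gene that marks misfolded glycoproteins, by 1.14 and 0.88. Herpud1, a stress-inducible organiser of the complex, was at 17736, 22461 and 16276 in the wild-type libraries, against 7197, 9713 and 4974 for Ctnnb1 and 9443, 5640 and 5188 for the combined group. Its tumour libraries spread more than those of Sel1l and stayed below the wild type, with log2 changes of -1.41 (SE 0.29, adjusted p 0.00366 in limma) and -1.52 (SE 0.29, adjusted p 0.0025 in limma).

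Derl3 (Entrez 70377, chr10:75893413-75895941, plus strand) and Derl1 encode related membrane proteins of the degradation channel and marked the ends of this class. Derl3 was at 6166, 5571 and 2854 in the wild-type libraries, against 367, 475 and 441 for Ctnnb1 and 727, 1086 and 475 for the combined group. Wild-type replicate 3 was the lowest of its group and held more than any tumour library. Derl3 fell to 8.79% of the wild-type mean in the Ctnnb1 (log2 -3.44, SE 0.35, limma adjusted p 0.000122) and to 15.7% in the combined group (log2 -2.67, SE 0.35, limma adjusted p 0.000387), the largest fall of the 37 in both. Derl1 was at 5769, 5908 and 5461 in the wild-type libraries, against 4147, 4265 and 4223 for Ctnnb1 and 4298, 4070 and 4717 for the combined group. It fell by only 0.44 (SE 0.07, adjusted p 0.000813 in limma) and 0.39 (SE 0.07, adjusted p 0.00142 in limma), and with equal totals its changes were 0.05 and 0.12, not called.

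The order of levels per length changed with these falls. Values were divided by the exon length of each gene in GENCODE M21, on the deposited scale. Per 1000 bases of exon, P4hb (21900), Pdia6 (20680), Calr (19990) and Hspa5 (15110) had the highest wild-type means of the 37, and Ern1 (1063), Atf6 (962) and Ssr1 (726) the lowest. In the Ctnnb1 group P4hb stayed first, at 13290. There Pdia6 went from place 2 to 9 (3199), Creld2 from 9 to 24 and Derl3 from 26 to 37, while Canx went from 16 to 7 and Xbp1 from 22 to 8 (from 2992 to 3356 per 1000 bases).

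Within a group, the same libraries were high or low for most of the 37 genes. Wild-type replicate 2 was the highest wild-type library for 32 of the 37 genes and replicate 3 the lowest for 21. Ctnnb1 replicate 14 was the highest of its group for 35 genes and replicate 15 the lowest for 32. In the combined group replicate 10 was highest for 18 and replicate 11 lowest for 23. These ranks were not counted over all tested genes. The median difference of the 37 genes from the wild-type mean was -0.91, -0.78 and -1.28 in Ctnnb1 replicates 13, 14 and 15, and -0.82, -1.08 and -0.90 in combined replicates 10, 11 and 12. Between wild-type libraries it ran from -0.11 to 0.13. These differences are on the deposited scale, and equal totals move the tumour libraries up.

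Genes whose protein products fill the prostatic or the seminal vesicle fluid were set beside the ER genes. Over 25 secretory output genes, 18 of prostate and 7 of seminal vesicle fluid, the summed value was 22.8%, 22.5% and 29.4% of the wild-type totals. It was 0.933%, 1.28% and 1.18% of the totals in Ctnnb1 replicates 13, 14 and 15 and 1.91%, 1.33% and 0.626% in combined replicates 10, 11 and 12. Every tumour library was far below the wild type. The prostate fluid genes alone held 17.9% to 21.3% of wild-type, 0.917% to 1.28% of Ctnnb1 and 0.477% to 1.14% of combined totals. The seminal vesicle genes held 1.21% to 11.45% of wild-type, 0.000694% to 0.0163% of Ctnnb1 and 0.149% to 0.782% of combined totals. In wild-type replicate 3 the seminal vesicle share was the highest and the prostate share the lowest of the wild-type libraries. On the deposited scale 29.6% of all tested genes fell in the Ctnnb1 and 29.5% in the combined comparison. Of the prostate fluid genes 17 of 18 fell in the Ctnnb1 (median -8.20) and 14 of 18 in the combined group (median -5.60). Of the seminal vesicle genes 7 of 7 fell in the Ctnnb1 group, and 1 of 7 in the combined group, where 4 of 7 overlapped the wild type. Tgm4, the transglutaminase that forms the copulatory plug, was at 1014820, 1163929 and 921258 in the wild-type libraries, against 122914, 177427 and 143086 for Ctnnb1 and 69447, 10517 and 51212 for the combined group. The 37 ER genes made up 1.64% to 2.07% of the wild-type, 1.08% to 1.46% of the Ctnnb1 and 1.44% to 1.57% of the combined totals.

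**Figure D4:**
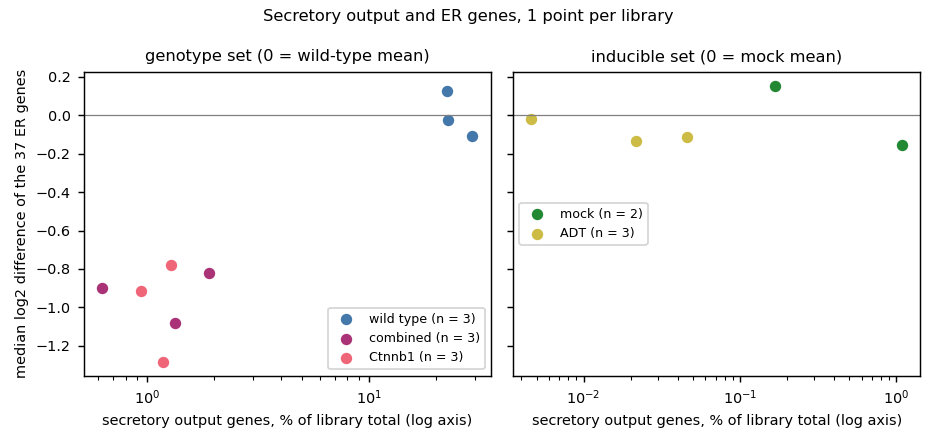
Each point is a library, with the share of its total held by 25 secretory output genes (log axis) and the median log2 difference of the 37 ER genes from the wild-type mean (left, deposited scale) or the mock mean (right). On the left, the tumour libraries lie below the wild type on both axes. On the right the ADT libraries hold 0.00464% to 0.0457% and mock libraries 0.168% and 1.09%. The share includes the seminal vesicle genes.

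Tissue content also differed between the wild-type and tumour pieces, and its part in the ER results was not tested. The seminal vesicle genes were highest in wild-type replicate 3 (Svs1 at 466665, against 9346 and 16374 in replicates 1 and 2), the library that was the lowest wild-type one for 21 of the 37 ER genes. Without that library 35 ER genes were called in the Ctnnb1 group and 32 in the combined group. Of all tested genes 29.6% fell and 28.9% rose in the Ctnnb1 comparison, and 29.5% fell and 28.3% rose in the combined one. All 5 smooth muscle markers fell in both comparisons, their sum going from 128346 to 163578 in wild type to 1207 to 2625 in Ctnnb1 and 4700 to 16038 in combined libraries. Skeletal muscle markers fell for 4 of 5 in the Ctnnb1 and 5 of 5 in the combined group, with sums of 8835 to 117272 in wild type, 7 to 8533 in Ctnnb1 and 48 to 977 in combined libraries. Squamous markers rose for 5 of 6 in both groups. Of 8 luminal epithelial markers 3 fell and 1 rose in the Ctnnb1 group, and 4 fell and 2 rose in the combined group. Their sum was 535643 to 710193 in wild type, 163369 to 200089 in Ctnnb1 and 128315 to 166810 in combined libraries, with Krt8 higher (1.07 and 1.41) and Epcam lower (-0.98 and -1.01). The luminal list includes Pbsn, which is also on the prostate fluid list, so this sum is not independent of the secretory one. In whole tissue, fewer cells of a type and less RNA per cell cannot be told apart.

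Plasma cells are rich in ER as well, and their part in the ER values was not tested. The 9 tested plasma and B cell markers summed to 2118 to 3077 in wild type, 5298 to 7021 in Ctnnb1 and 8300 to 11002 in combined libraries, with 2 called higher in the Ctnnb1 group (28.9% of all tested genes) and 6 in the combined group (28.3%), and 0 lower. In the Ctnnb1 group 5 of the 9 had a positive and 4 a negative change. The gene Igj, for the antibody J chain, which plasma cells secrete, was at 739, 730 and 437 in the wild-type libraries, against 165, 911 and 348 for Ctnnb1 and 1477, 640 and 955 for the combined group, and was not called in either. Macrophage markers rose for 6 of 8 in the Ctnnb1 and 7 of 8 in the combined group, and all 4 neutrophil markers rose in the combined group (3 of 4 in the Ctnnb1 group). Fibroblast markers rose for 7 of 10 in the combined group, where Col1a1 was at 71365, 175255 and 8835 in replicates 10, 11 and 12. Cycling cell markers rose for 5 of 5 in both.

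Other genes of the same pathways mostly lay lower too, where 29.6% (Ctnnb1) and 29.5% (combined) of all tested genes fell. In the PERK branch, whose ATF4 factor turns on amino acid synthesis genes, 11 of 14 genes fell in the Ctnnb1 and 9 of 14 in the combined group, and Slc7a11, a cystine transporter, rose in both (3.18 and 2.29). Asns, the asparagine synthetase gene, was at 7973, 9211 and 9284 in the wild-type libraries, against 992, 1063 and 993 for Ctnnb1 and 1089, 1056 and 984 for the combined group. Its wild-type and tumour libraries were far apart, and it fell by 3.11 (SE 0.08, adjusted p 5.95e-07 in limma) and 3.08 (SE 0.08, adjusted p 6.58e-07 in limma). Chac1, which breaks down glutathione, had log2 changes of -5.59 and -4.11, Phgdh, of serine synthesis, of -2.53 and -2.33, and Eif2ak3, which encodes PERK itself, of -1.20 and -0.88, all called lower. Ddit3, the stress gene for CHOP, fell in the Ctnnb1 group (-1.07) and had a change of -0.35 in the combined group that was not called.

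Of 30 further ER folding and glycan genes, 24 fell in the Ctnnb1 group and 25 in the combined group, against 29.6% and 29.5% of all tested genes. Dnajc10, which encodes a disulfide reductase with a J domain, was at 117493, 129491 and 108427 in the wild-type libraries, against 30504, 29473 and 26740 for Ctnnb1 and 31470, 36620 and 33241 for the combined group. Every tumour library was far below the wild type, with log2 changes of -2.03 and -1.81. Krtcap2, a subunit of the oligosaccharyltransferase, fell by 1.48 and 1.59, and Erp44, which retains immature proteins, by 1.42 and 1.48. Ero1l, the oxidase that recharges disulfide isomerases, rose in the combined group (2.30, adjusted p 0.00132 in limma) and was not called in the Ctnnb1 group (0.26). It was at 4074, 9971 and 14721 in combined libraries against 1585, 1848 and 1724 in wild-type and 2050, 1944 and 2166 in Ctnnb1 libraries. Its relative Ero1lb fell in both (-2.88 and -2.75).

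Of 14 further degradation genes 11 fell in each group, with Edem2 (-2.04 and -2.14) and Os9 (-1.09 and -1.40), which both act on misfolded glycoproteins, among them. Transport from the ER to the Golgi had 25 of 27 genes lower in the Ctnnb1 and 24 of 27 in the combined group. Sec24b, of the vesicle coat, was the one gene of this list called higher (0.17 in the Ctnnb1 group). The cargo receptor pair Mcfd2 (-1.89 and -1.55) and Lman1 (-1.21 and -1.19) fell in both. With equal totals, the transport list had 16 lower and 2 higher in the Ctnnb1 and 8 lower and 3 higher in the combined group, and the folding list had 14 lower and 5 higher and 14 lower and 6 higher. The PERK branch had 7 lower and 2 higher in the Ctnnb1 and 5 lower and 3 higher in the combined group. The further degradation list then had 5 lower and 4 higher in the Ctnnb1 and 5 lower and 3 higher in the combined group, with its combined median turning to 0.08. The median of all tested genes under equal totals was 0.49 in the Ctnnb1 and 0.50 in the combined comparison. The shares of all tested genes given for the deposited scale do not apply to these counts, and shares under equal totals are not given here. Among 7 secretory cell transcription factors 5 fell in each group on the deposited scale, where 29.6% (Ctnnb1) and 29.5% (combined) of all tested genes fell. Of the 7, 1 rose in the Ctnnb1 group (0.50). With equal totals 4 of the 7 were lower and 1 higher in each group. Bhlha15, which encodes MIST1, a factor that scales up the secretory machinery, was at 10830, 9146 and 9538 in the wild-type libraries, against 1207, 1704 and 1029 for Ctnnb1 and 1422, 479 and 588 for the combined group. It separated wild type from tumours, with log2 changes of -2.93 and -3.73, and Spdef, a factor of secretory epithelium, fell by 2.94 and 2.83.

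Genes with and without the stress response elements were set side by side. The 11 ER genes with either motif all fell in the Ctnnb1 group (median -1.14), as did 17 of the 19 whose window held neither (median -0.92) and all 7 without a window in the table, where 3252 of all 11018 tested genes with a window fell and 3193 rose (median 0.00). In the combined group 6 of the 11 fell (median -0.95), 16 of the 19 (median -0.95) and 7 of the 7, where 3293 of the 11018 fell and 3105 rose. Of 16 other tested genes with a motif, 7 fell and 4 rose in the Ctnnb1 group (median -0.34), and 8 fell and 4 rose in the combined group (median -0.60). Among the ER genes with a motif, the changes in the Ctnnb1 group ran from -3.44 (Derl3) to -0.36 (Canx).

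Androgen deprivation was compared with mock treatment in the inducible model. None of the 37 ER genes was called in limma, where 2 of 23289 tested genes were (0.00859%), and 5 had an unadjusted p under 0.05, against 16.2% of all tested genes. The median log2 change was -0.07 for the 37 and -0.02 for all tested genes, with class medians of 0.01 for chaperones, -0.14 for sensors, -0.11 for translocon and -0.13 for degradation genes. All 3 ADT libraries lay above both mock libraries for 3 genes (Pdia4, Dnajb11 and Derl1), against 16.4% of tested genes, and below them for 9, against 16.8%. The 9 were Dnajb9, Dnajc3, Ern1, Sec61b, Ssr4, Spcs2, Sec11c, Rpn1 and Derl3.

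The mock libraries differed in one direction for the whole set: mock replicate 1 was above mock replicate 2 for 37 of the 37 genes. The share of all tested genes with mock replicate 1 above mock replicate 2 was not counted. The median difference from the mock mean was 0.15 and -0.15 in the mock libraries and -0.02, -0.14 and -0.11 in the ADT libraries. Without mock replicate 1 the class medians were 0.27, -0.07, 0.10 and 0.04, and without mock replicate 2 they were -0.30, -0.30, -0.24 and -0.31, in the same order of classes, so that the sign of 3 of the 4 class medians turned with the mock library left out. In these refits the remaining mock library is assumed to vary like the ADT group.

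**Figure D5:**
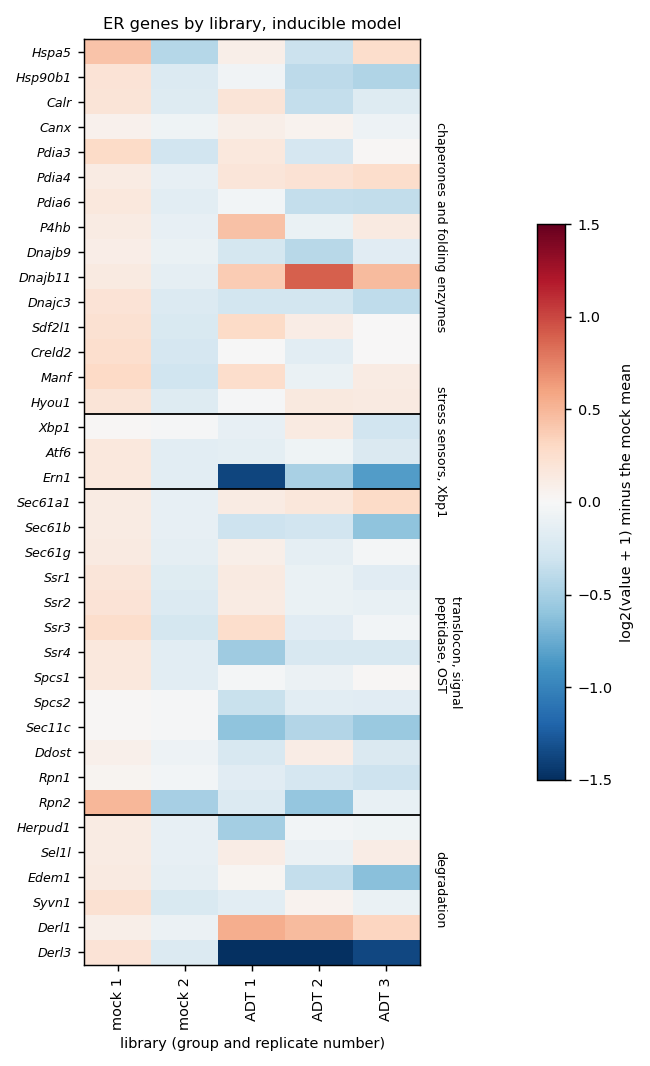
Heat map of log2(value + 1) minus the mock mean for the 37 ER genes in the 5 libraries of the inducible model, with colours ending at 1.5 on either side. The left column (mock 1) is red and the next (mock 2) blue in all 37 lines, and Derl3 is the darkest blue in all 3 ADT libraries.

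Derl3 was at 206 and 156 in the mock and 59, 61 and 69 in the ADT libraries. All ADT values were below both mock values, with a log2 change of -1.50 (SE 0.31, p 0.00524, adjusted p 0.159 in limma), and the gene was low in this model throughout. Ern1 was at 5604 and 4528 in mock libraries, against 1936, 3585 and 2819 in ADT libraries. It did not overlap either (log2 -0.90, SE 0.30, unadjusted p 0.0315, limma adjusted p 0.257). Sec11c was at 4522 and 4396 against 2927, 3278 and 3031, with mock libraries close to each other and each ADT library lower (log2 -0.54, SE 0.11, unadjusted p 0.00559, limma adjusted p 0.163). Sec61b was at 2409 and 2020 against 1777, 1814 and 1447 (log2 -0.40, SE 0.17, limma adjusted p 0.349). Dnajb9 was at 2197 and 1908 against 1712, 1533 and 1813 (-0.28, SE 0.14, adjusted p 0.414 in limma). Both were lower in each ADT library than in either mock library, and neither was called.

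On the other side, Dnajb11 was at 3402 and 2813 in mock libraries, against 4036, 5748 and 4288 in ADT libraries (log2 0.58, SE 0.21, unadjusted p 0.0393, limma adjusted p 0.28). Derl1 was at 4266 and 3807 against 5864, 5598 and 5020 (log2 0.44, SE 0.13, unadjusted p 0.0197, limma adjusted p 0.217). In both genes each ADT library was higher than each mock library. Hspa5 was at 33118 and 18197 against 26088, 19614 and 29465, with the ADT values between the mock values (log2 0.01, SE 0.33, limma adjusted p 0.991). Xbp1 was at 8959 and 8683 against 8082, 9649 and 7205 (log2 -0.10, SE 0.16, limma adjusted p 0.807). Its groups overlapped, as did those of Atf6, at 3550 and 2854 against 2871, 3033 and 2745.

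The remaining anchors gave no separation or small shifts. Hsp90b1 was at 27492 and 20555 against 22975, 18127 and 17432, Calr at 26796 and 20396 against 26783, 18276 and 20429, and Sdf2l1 at 720 and 528 against 752, 667 and 621. Creld2 was at 1312 and 931 in mock libraries, against 1103, 990 and 1114 in ADT libraries. Sec61a1 was at 11153 and 9352 against 11102, 11500 and 12447, and Ddost at 5722 and 5113 against 4589, 5824 and 4667. In each of these the groups overlapped. Ssr4 was at 4290 and 3448 against 2668, 3244 and 3267, without overlap (log2 -0.34, SE 0.17, limma adjusted p 0.412). Herpud1 was at 3677 and 3109 against 2380, 3295 and 3225, and Sel1l at 5109 and 4298 against 5052, 4398 and 5050, and the groups overlapped in both.

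The secretory output genes held 0.168% and 1.09% of the mock and 0.00464%, 0.0216% and 0.0457% of the ADT totals. Prostate fluid genes alone held 0.153% to 0.196% of the mock and 0.00463% to 0.0195% of the ADT totals. Seminal vesicle genes held 0.0153% to 0.891% of the mock and 6.6e-06% to 0.0262% of the ADT totals. Of 16 tested prostate fluid genes 0 were called in limma, 11 had an unadjusted p under 0.05 and 11 were lower in every ADT than in every mock library (median -4.14). Tgm4 was at 1535 and 1445 in mock libraries, against 36, 106 and 10 in ADT libraries. The 37 ER genes made up 1.12% and 0.898% of the mock totals and 0.889% to 1.01% of the ADT totals, so that their share overlapped between the treatments while the secretory share did not. Of 29 tested further folding and glycan genes, 14 degradation and 27 transport genes 0 were called (unadjusted p under 0.05 for 6, 2 and 2, against 16.2% of all tested genes). The folding list's Srp54a is listed at 0 in all 5 inducible libraries and was not tested. Luminal markers, with Pbsn on their list, lay lower in every ADT than in every mock library for 6 of 8. Macrophage markers did so for 2 of 8 and plasma and B cell markers for 3 of 11, against 16.8% of all tested genes. Igj was at 5185 and 6943 in the mock and 1634, 1466 and 628 in the ADT libraries. Fibroblast marker sums spread from 128469 to 646465 in mock and from 79833 to 461572 in ADT libraries. The part of these in the ER values was not tested.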

How the data were processed

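RNA from mouse prostate and prostate tumours was sequenced. The submitters' processing notes name DESeq2 1.14.1, HTSeq 0.6.0, the aligner TopHat2 2.1.0 with Bowtie2 2.2.6.0, and GRCm38.p3; the handling of reads that map to several genes is not given in the sources used here. The deposited values are scores: gene read counts that the authors had scaled per library and rounded, judged from the values themselves (median ratios of libraries to their set of 0.981 to 1.01), so count tests were not used and depths are unknown. The lowest mean of a feature listed in the genotype files is 14.1, so genes of low values had been removed there.

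From 15195 features of the genotype files, 631 without an Entrez number, 118 Entrez numbers given to several features and 389 repeats were left out, leaving 13905 genes. From 42847 lines of the inducible files, 3668 repeats were left out, leaving 39179 genes. Genes with a value of at least 1 in 3 (genotype) or 2 (inducible) libraries were tested, 13905 and 23289. limma 3.58.1 in R 4.3.3, with a trend in the prior variance and Benjamini-Hochberg adjustment, was fitted on log2(value + 1) over 9 genotype libraries in one model and 5 inducible libraries in another, with no covariates, two-sided. The fit was tested on simulated data. The 37 genes and all lists were chosen with earlier results of these data known. Values in every library were given for 15 anchor genes and, per class and comparison, for the 2 smallest p-values and the change farthest from the class median. Alternatives changed the pseudocount (10), the filter (none, or a mean of at least 100), the scaling (equal totals, or a trimmed mean of M values with trims of 0.3 and 0.05), the prior, the libraries fitted and each replicate. Python 3.11.15 with pandas 2.3.3, numpy 2.4.6 and matplotlib 3.10.9 was used. Gene positions and lengths are from GENCODE M21 and promoters from RefSeq GRCm38.p6. One further genotype group of 3 libraries is not reported here and entered only an alternative fit of 12 libraries.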

Additional observations from a re-analysis of the deposited data

How the results depend on the processing

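The number of the 37 ER genes called stayed within 1.5 times in every alternative run for the tumour comparisons, except for the directions below. Leaving out 1 replicate gave 33 to 35 called in the Ctnnb1 and 27 to 32 in the combined comparison. With equal totals the class medians for chaperones, sensors, translocon and degradation were -0.50, 0.11, -0.43 and -0.78 in the Ctnnb1 and -0.22, -0.54, -0.43 and -0.61 in the combined comparison. The sign turned with equal totals in the Ctnnb1 group for Canx (0.13), Ern1 (0.11), Ssr1 (0.0277) and Derl1 (0.0523), and in the combined group for Hsp90b1 (0.16), Calr (0.12), Canx (0.30), Pdia3 (0.30), Pdia4 (0.0213), Dnajb11 (0.27), Ssr1 (0.23) and Derl1 (0.12). Equal totals without the 25 secretory output genes, a scaling chosen after seeing the data, gave -0.83 for the combined translocon median.

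For ADT against mock, the genes called in limma numbered 2, and 5 with a pseudocount of 10, 172 without a filter, 69 with a mean of at least 100, 48 with equal totals, 40 with a trimmed mean of M values, 49 with equal totals without secretory genes and 29 with a robust prior. The cause was not tested. With equal totals Hspa5 turned to -0.0356 and Sel1l to -0.0031, and without secretory genes to -0.0444 and -0.0119. Leaving out 1 replicate called 0 genes (2334 to 3979 at an unadjusted p under 0.05). The class medians then ran from -0.30 to 0.27 for chaperones, -0.30 to -0.0735 for sensors, -0.24 to 0.10 for translocon and -0.31 to 0.0375 for degradation. Genes whose sign turned ran from -0.42 to 0.44 (Hspa5), -0.31 to 0.079 (Calr), -0.0869 to 0.36 (Sdf2l1), -0.30 to 0.20 (Creld2), -0.21 to 0.0018 (Xbp1), -0.30 to 0.0134 (Atf6) and -0.083 to 0.17 (Sel1l). Mock and ADT libraries share replicate numbers 1 and 2, which the labels tie to nothing: deviations correlated at 0.22 (mock 1 with ADT 1) and 0.12 (mock 2 with ADT 2), and at 0.14 for mock 2 with ADT 3, whose numbers differ. With 2 mock libraries their deviations mirror each other. The fit with the replicate block called 0 genes in limma, with Hspa5 at -0.12 and Xbp1 at 0.0018. With 3 or fewer libraries a group and no depths, small changes could not be resolved.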
